A study of Homo sapiens with 10 samples.

Results

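The genes described here code for the proteins that recognise introns and remove them: the SR proteins (SRSF), the hnRNP proteins (HNRNP), the Sm and particle-specific proteins of the small nuclear ribonucleoproteins or snRNPs (SNRP), the SF3A and SF3B subunits, the PRPF proteins and the U2AF subunits. They were chosen by symbol in the gene table of the array platform, as genes whose name starts with one of these stems and whose probe had a detection p-value below 0.05 on at least 5 of the 10 arrays. Of 71 such genes with a named probe, 66 passed, with 103 probes, among 9041 genes tested in all. The selection uses names and detection, not the difference between the groups. HNRNPC was not analysed here.

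The cells were OCI-LY10, a human lymphoma line (diffuse large B-cell lymphoma of the activated B-cell kind). One group received 1 micromolar CC-122 for 18 hours, and the other received the solvent DMSO for the same 18 hours. CC-122 (avadomide) attaches to cereblon, which picks proteins for a ubiquitin ligase, and thereby depletes the transcription factors Ikaros and Aiolos. Each group held 5 Illumina BeadChip arrays, numbered 1 to 5 in the labels. All arrays came from a single line, and nothing in the labels says whether replicates were grown separately. The p-values therefore reflect the scatter among these arrays alone, which may be technical.

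An intron is removed by the spliceosome, which assembles anew on each transcript. The U1 snRNP pairs with the start of the intron, U2AF and the U2 snRNP with its SF3 subunits mark the end and the branch point, and a particle made of the U4, U6 and U5 snRNPs then brings in the catalytic core around PRPF8. SR proteins bind exons and mostly help nearby splice sites to be used, while hnRNP proteins coat transcripts and often hide sites. In lymphocytes HNRNPLL and HNRNPL are known for controlling which exons of the surface phosphatase CD45 are kept.

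The arrays carried probe intensities in arbitrary units, given below as log2 values after background correction and quantile normalization (normalized log2 intensity). Arrays of one group correlated at 0.989 to 0.993 across genes, and 18043 to 18844 probes were detected per array. CC-122 replicate 3 was brighter than the rest, with a median raw intensity of 108.9, against 74.0 to 81.6 on the other 9 arrays. Of 7 B-cell markers 5 were tested; CD79B rose, CD22, BLNK and MS4A1 fell and CD79A was not called, and the summed signal of the list, as log2, was 13.64 to 13.72 on CC-122 arrays and 13.40 to 13.51 on DMSO arrays; the part of these shifts in the results below was not tested. None of 8 T and NK cell markers passed the detection filter. Of the other lists of foreign cell types, CD14, FCGR3A, PPBP and EPCAM passed it and none was called. EPCAM averaged a normalized log2 intensity of 8.82 in CC-122 and 8.96 in DMSO cells, whereas CD14, FCGR3A and PPBP averaged 4.75 to 5.36. The summed signal of each of these lists overlapped between the groups.

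Splicing factor transcripts differed little between CC-122 and DMSO cells. Of the 66 genes, 2 were higher after CC-122, none was lower and 64 did not pass the test (limma, two-sided, Benjamini-Hochberg adjusted p below 0.05 over all 9041 genes). That is 3.03% of these genes, against 14.8% of all genes tested, with 8.15% of all genes higher and 6.67% lower. At an unadjusted p below 0.05 the counts were 3 higher and 6 lower, or 13.6% of the splicing factors, against 27.6% of all genes. The median log2 fold change (CC-122 over DMSO) was -0.04 over the splicing factors and -0.014 over all genes. In absolute size the median change was 0.070 log2 units for splicing factors and 0.12 for all genes. RNA came from whole cultures, so fewer cells with a transcript and less of it per cell cannot be told apart, and quantile normalization hides a shift shared by all genes. Median scaling sets all arrays to a common median over all probes, so it hides such a shift too. With it the median change was 0.049 for splicing factors and 0.066 for all genes.

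The calls near the threshold moved with single arrays. Without any one CC-122 array, or without DMSO replicate 3, 4 or 5, HNRNPLL alone was higher. A single gene was lower without CC-122 replicate 3 or DMSO replicate 1 or 4 (U2AF1L4 each time), CC-122 replicate 4 (SRSF3), DMSO replicate 3 (HNRNPH1) or DMSO replicate 5 (HNRNPA1L2).

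The intervals show how large a change could have gone unseen. For 64 of the 66 genes the 95% interval of the change, without adjustment for multiple tests, lay inside 1.5-fold in either direction (97%), and for 50 it lay inside 1.25-fold (75.8%). Over all genes tested these shares were 87.5% and 45.1%. HNRNPCL2 and SNRPE had the intervals that crossed 1.5-fold, from -0.08 to 0.60 and from -0.63 to 0.16 on the log2 scale. Standard errors of the 66 changes lay between 0.054 and 0.18, with a median of 0.073, against a median of 0.090 over all genes. By quartile of signal, from lowest to highest, 1, 9, 11 and 45 of the 66 genes lay in each, of which 0, 1, 1 and 0 were called. Of all genes 8.27%, 17.1%, 17.7% and 16.2% were called in the same quartiles. In absolute size the median log2 change there was 0.27, 0.17, 0.079 and 0.059 for splicing factors. For all genes it was 0.14, 0.14, 0.12 and 0.090, so the size of the change also varied with signal.

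**Figure D1:**
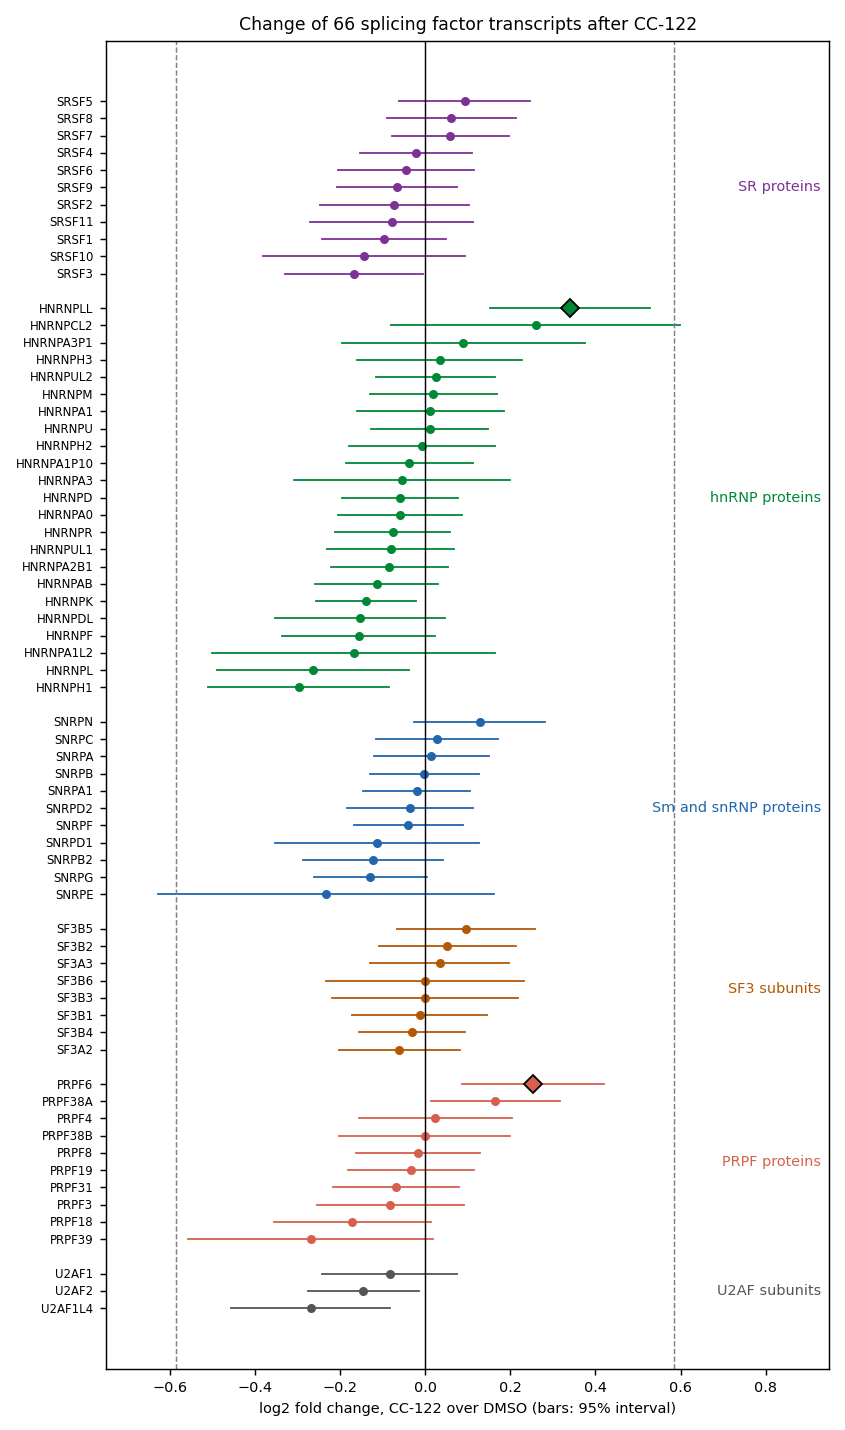
Log2 fold change (CC-122 over DMSO, horizontal axis) of each of the 66 splicing factor genes, grouped by family, with 95% intervals from limma as bars and dashed lines at 1.5-fold. Diamonds mark HNRNPLL and PRPF6, which passed the test, and the intervals of HNRNPCL2 and SNRPE are those that cross a dashed line.

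**Figure D2:**
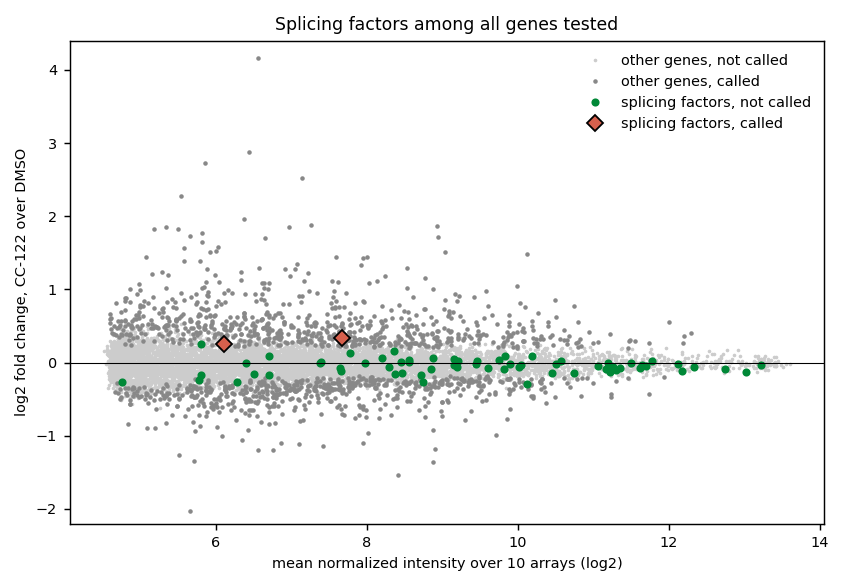
Log2 fold change (CC-122 over DMSO) against the mean normalized log2 intensity over the 10 arrays for all 9041 genes, with splicing factors in colour. The splicing factors lie between -0.30 and 0.34, whereas all genes range from -2.03 to 4.17.

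HNRNPLL, the hnRNP protein known from CD45 exon choice, was the larger of the changes that passed. Its normalized log2 intensity was 7.996, 8.005, 7.601, 7.788 and 7.832 on CC-122 arrays 1 to 5, against 7.561, 7.496, 7.402, 7.641 and 7.419 on DMSO arrays 1 to 5. The groups overlapped through a single pair of arrays, since CC-122 replicate 3, the bright array, lay below DMSO replicate 4. HNRNPLL rose by 0.34 ± 0.09 on the log2 scale (SE), or 1.27-fold, with an adjusted p of 0.0187 from limma. It averaged 7.844 ± 0.17 in CC-122 cells and 7.504 ± 0.10 in DMSO cells (SD, n = 5 each). Without the bright array the change was 0.40, and the call was lost with median scaling of the arrays (adjusted p = 0.154 from limma).

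PRPF6, which bridges the U5 snRNP to the U4 and U6 snRNPs, also rose after CC-122. Its normalized log2 intensity was 6.20, 6.19, 6.34, 6.32 and 6.15 on CC-122 arrays 1 to 5, against 6.10, 6.11, 5.79, 5.91 and 6.02 on DMSO arrays 1 to 5. All CC-122 arrays lay above all DMSO arrays, by a narrow margin. The rise was 0.25 ± 0.08 on the log2 scale (SE), or 1.19-fold, with an adjusted p of 0.0448 from limma. The call was close to the threshold and was lost in 15 of 20 alternative analyses, among them a fit blocked on replicate number (adjusted p = 0.107) and leaving out any CC-122 array. PRPF6 and HNRNPK were the 2 splicing factors whose groups did not overlap (3.03%, against 13.4% of all genes).

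**Figure D3:**
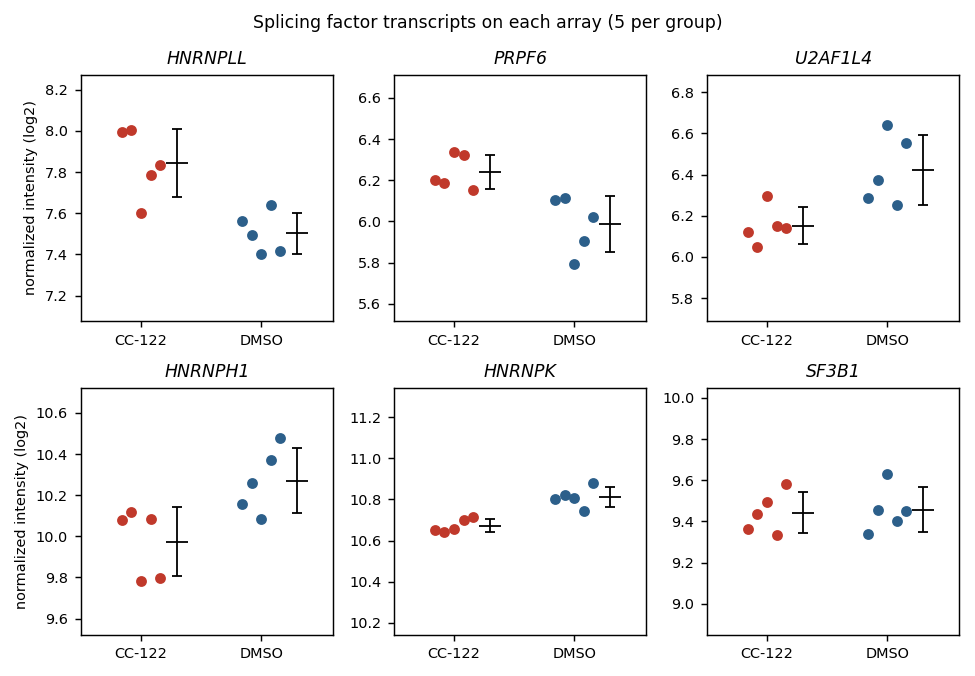
Normalized log2 intensity of 6 splicing factor genes on each CC-122 array (left) and each DMSO array (right), with the mean and SD beside the points; each panel spans the same range of log2 units. HNRNPLL and PRPF6 are higher after CC-122, U2AF1L4, HNRNPH1 and HNRNPK sit lower without passing the test, and SF3B1 differs little. The groups overlap in all panels but those of PRPF6 and HNRNPK.

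None of the 11 SR proteins tested passed, with 3 changes above 0 and 8 below and a median of -0.07 on the log2 scale. The largest was that of SRSF3, a small SR protein that also serves mRNA export, at -0.17 ± 0.07 (SE, adjusted p = 0.164 from limma). SRSF3 had normalized log2 intensities of 8.62, 8.68, 8.53, 8.85 and 8.52 on CC-122 arrays 1 to 5, against 8.73, 8.78, 8.79, 8.91 and 8.82 on DMSO arrays 1 to 5. CC-122 replicate 4 was the array that reached into the DMSO range, and without it the difference was -0.22 and passed (adjusted p = 0.0489 from limma). SRSF1, the founding member of the family, averaged 11.26 ± 0.12 in CC-122 cells and 11.35 ± 0.04 in DMSO cells (SD, n = 5 each), a difference of -0.10 with a 95% interval from -0.24 to 0.05. SRSF2, which binds exons and also acts in transcription elongation, differed by -0.07 (95% interval -0.25 to 0.10). SRSF7 differed by 0.06 (95% interval -0.08 to 0.20). The upper end of the family was SRSF5 at 0.09. SRSF10, which represses splicing once dephosphorylated, had a difference of -0.14 (95% interval -0.38 to 0.09), and its second probe gave 0.05. Leaving out 1 array moved the SRSF10 difference between -0.20 and -0.05, with CC-122 replicate 5 and DMSO replicate 1 each moving it over 1.5 times.

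Of 23 hnRNP genes tested, 1 was higher (HNRNPLL) while the other 22 missed the threshold, and the median was -0.06. HNRNPH1, which binds runs of G, and HNRNPL, the relative of HNRNPLL, had the lowest log2 fold changes of the family; both were picked after their values were seen. HNRNPH1 had normalized log2 intensities of 10.08, 10.12, 9.78, 10.08 and 9.80 on CC-122 arrays 1 to 5, against 10.16, 10.26, 10.08, 10.37 and 10.48 on DMSO arrays 1 to 5. CC-122 arrays 3 and 5 were the low ones, and CC-122 replicate 2 was the one that reached into the DMSO range. The difference was -0.30 ± 0.10 (SE, adjusted p = 0.0617 from limma), and it passed in 6 of 20 alternative analyses, such as the one without background correction (adjusted p = 0.00635). HNRNPL was at 8.41, 8.49, 8.58, 8.78 and 8.80 on CC-122 arrays 1 to 5, against 8.83, 8.82, 8.74, 8.79 and 9.19 on DMSO arrays 1 to 5. CC-122 arrays 4 and 5 reached into the DMSO range, and DMSO replicate 5 stood above the other 4. The difference of -0.26 ± 0.10 (SE, adjusted p = 0.116 from limma) had the opposite sign to the change of HNRNPLL, and it passed in 3 of 20 alternative analyses. Leaving out 1 array moved the HNRNPL difference between -0.31 and -0.18, and it was weakest without DMSO replicate 5.

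HNRNPK, which binds runs of C in RNA and DNA, had normalized log2 intensities between 10.64 and 10.72 on CC-122 arrays and between 10.75 and 10.88 on DMSO arrays. The groups did not overlap, yet the difference of -0.14 ± 0.05 did not pass (SE, adjusted p = 0.113 from limma). Its other kept probes gave -0.05, -0.20 and 0.14, so the direction depends on the probe. HNRNPA1 and HNRNPA2B1, abundant proteins that silence exons, differed by 0.011 (95% interval -0.16 to 0.18) and -0.08 (95% interval -0.22 to 0.05). The second kept probe of HNRNPA1 gave 0.12. All 4 kept probes of HNRNPA2B1 lay between -0.08 and -0.05. HNRNPA1L2, HNRNPA1P10, HNRNPA3P1 and HNRNPCL2 are near copies or pseudogenes of family members, and their probes may share signal with the parent genes. None of these 4 passed.

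The 11 Sm and snRNP genes gave no call in either direction and a median of -0.04. Sm proteins form the ring on most spliceosomal snRNAs, though not on the U6 snRNA. Among them SNRPB differed by -0.0019 (95% interval -0.13 to 0.13), SNRPD1 by -0.11 (95% interval -0.35 to 0.13) and SNRPG by -0.13 (95% interval -0.26 to 0.0031). Leaving out 1 array moved SNRPD1 between -0.21 (without DMSO replicate 5) and -0.05 (without DMSO replicate 2), and leaving out CC-122 replicate 1 also moved it over 1.5 times. SNRPD2 and SNRPF had differences of -0.035 and -0.04. SNRPE had the largest standard error of the 66 genes, at 5.40 to 5.97 on CC-122 arrays and 5.60 to 6.64 on DMSO arrays, with DMSO replicate 4 the highest. SNRPN, the Sm gene of the imprinted Prader-Willi region and a near twin of SNRPB in protein, averaged 7.85 ± 0.10 in CC-122 cells and 7.72 ± 0.10 in DMSO cells (SD, n = 5 each). It differed by 0.13 (adjusted p = 0.276 from limma), and its other kept probes gave 0.10 and 0.23. The U1 proteins SNRPA and SNRPC differed by 0.014 and 0.03, and the U2 proteins SNRPA1 and SNRPB2 by -0.02 and -0.12.

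The 8 tested SF3 subunits, which hold the U2 snRNP on the branch point, were the family with the narrowest span, from -0.06 (SF3A2) to 0.10 (SF3B5), and all 8 intervals lay inside 1.25-fold. SF3B1, the large subunit that is often mutated in blood cancers, had normalized log2 intensities of 9.37, 9.44, 9.49, 9.34 and 9.58 on CC-122 arrays 1 to 5, against 9.34, 9.45, 9.63, 9.40 and 9.45 on DMSO arrays 1 to 5. The groups lay on top of each other, with a difference of -0.013 (95% interval -0.17 to 0.15, adjusted p = 0.937 from limma). Its other kept probes gave -0.04 and 0.014. SF3A1 was detected on 1 CC-122 array and 1 DMSO array and was not tested.

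Of 10 PRPF genes tested, PRPF6 was higher and 9 did not pass. PRPF8, the scaffold of the catalytic centre, differed by -0.017 (95% interval -0.16 to 0.13) and PRPF19, a ubiquitin ligase of the spliceosome, by -0.03 (95% interval -0.18 to 0.12). PRPF38A, which joins the spliceosome before activation, differed by 0.16 (adjusted p = 0.144 from limma), and its second kept probe gave 0.11. The partners of PRPF6 in the U4, U6 and U5 particle differed by -0.08 (PRPF3), 0.02 (PRPF4) and -0.07 (PRPF31). PRPF39 reached detection on 2 CC-122 arrays and all 5 DMSO arrays, so it passed the filter through its DMSO values, and its difference was -0.27 (adjusted p = 0.213 from limma).

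The 3 U2AF genes were all below 0 without passing the test. U2AF1 reads the last bases of the intron and U2AF2 the pyrimidine stretch before them; they differed by -0.08 (95% interval -0.24 to 0.07) and -0.15 (95% interval -0.28 to -0.014, adjusted p = 0.136 from limma). The second probe of U2AF2 gave 0.05. U2AF1L4, a paralogue of U2AF1 picked here after its value was seen, had normalized log2 intensities of 6.12, 6.05, 6.29, 6.15 and 6.14 on CC-122 arrays 1 to 5, against 6.29, 6.37, 6.64, 6.25 and 6.55 on DMSO arrays 1 to 5. The groups overlapped by CC-122 replicate 3, which lay above DMSO arrays 1 and 4. The difference was -0.27 ± 0.09 (SE, adjusted p = 0.0561 from limma), and it passed in 5 of 20 alternative analyses, among them the one without CC-122 replicate 3 (adjusted p = 0.0476).

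Of the 66 genes 26 had several kept probes, and in 8 of these the probes differed in sign: HNRNPDL, HNRNPH3, HNRNPK, SF3B1, SNRPB, SNRPF, SRSF10 and U2AF2. No probe of these 8 was called when all kept probes were tested together. The widest spread between probes was that of HNRNPUL1, at -0.08, -0.21 and -0.43, and the last of these missed the threshold too (adjusted p = 0.0737 from limma over probes). The narrowest was that of SNRPB, at -0.0019 and 0.0073. HNRNPLL and PRPF6 had 1 kept probe each, so no second probe bears on their calls. When all kept probes were tested together, HNRNPLL passed (adjusted p = 0.030 from limma over probes) and PRPF6 did not (adjusted p = 0.0698).

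**Figure D4:**
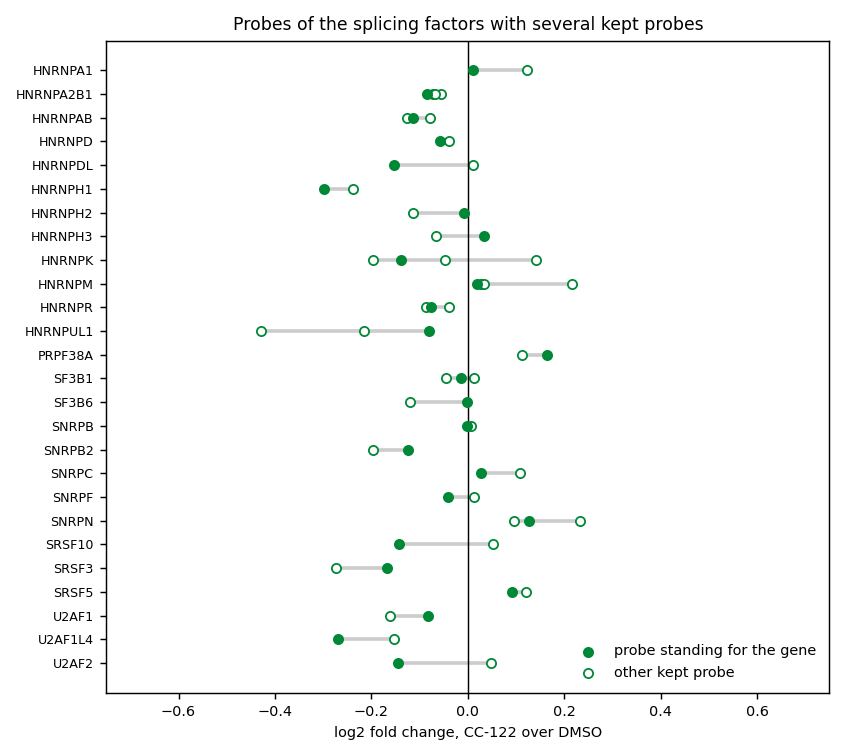
Log2 fold change (CC-122 over DMSO) of every kept probe of the 26 splicing factor genes with several, with the probe that stands for the gene filled. HNRNPUL1 and HNRNPK have the widest spans, and the probes of HNRNPA2B1 lie within 0.03 log2 units of each other.

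The series title sets CC-122 beside the interferon response, so the promoters of the splicing factors were searched for GAAANNGAAA on either strand, the core of the element through which interferon-stimulated genes are read. Promoters were windows from 250 bases before to 50 after the RefSeq gene start in GRCh38.p14, and 58 of the 66 genes had one. The letters were found in 4 of the 58 genes (6.9%), against 4.13% of the 7381 tested genes with a promoter. Over all 27305 genes with a promoter, tested or not, the share was 4.38%. The matches are shown because a reader may look for such an element here, and none of the 4 genes passed the test. Capitals mark the match, with 10 bases on either side, written on the strand of the gene.
HNRNPD: gaccgaggagGAAAGGGAAAaaaaaaaaac
HNRNPU: tgaaaggcggTTTCCTTTTCctccatttgc
SNRPB2: tctttccccaTTTCCATTTCcggactcttc
SNRPC: atgaaaggaaGAAAAGGAAAagccccgccc

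The HNRNPD window is chr4:82374065-82374094 on the minus strand and its match starts 93 bases before the gene start. The HNRNPU window is chr1:244864736-244864765 on the minus strand, 212 bases before the start. That of SNRPB2 is chr20:16729843-16729872 on the plus strand, 173 bases before the start, and that of SNRPC is chr6:34757380-34757409 on the plus strand, 115 bases before the start. The log2 fold changes were -0.06 for HNRNPD, 0.010 for HNRNPU, -0.12 for SNRPB2 and 0.03 for SNRPC, with adjusted p-values of 0.602, 0.944, 0.327 and 0.844 from limma. The windows of HNRNPLL and PRPF6 held no match to these letters. A match is a description of the sequence and not a site shown to be bound.

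Beyond the 66 genes, 107 other splicing genes from 10 lists were tested, of which 1 was higher, 6 were lower and 100 did not pass. The 7 calls are 6.54% of these genes, against 14.8% of all genes tested, with 8.15% of all genes higher and 6.67% lower. Their median log2 fold change was -0.04. No gene was called among the 10 tested genes of the SMN complex, the 7 U snRNP proteins named SNRNP, the 11 spliceosome helicases and remodelling GTPases, the 10 proteins of the end of the intron and the U2 snRNP, or the 5 of the U4, U6 and U5 particle. At an unadjusted p below 0.05 these 5 lists held 0, 1, 2, 1 and 0 genes. The other lists held 1 of 10 LSM genes, 4 of 16 of the catalytic steps, 3 of 8 of the SR protein kinase list, 3 of 24 regulators and 2 of 6 of the exon junction complex. In all that was 17 of 107 genes, against 27.6% of all genes tested. The number lower moved with single arrays: it was 2 without CC-122 replicate 1 or DMSO replicate 4, and 3 without CC-122 replicate 2, 3 or 5 or DMSO replicate 1, 2 or 3.

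RBFOX2, a regulator of alternative exons in muscle, brain and many epithelia, had the largest change of any splicing gene tested here. Its normalized log2 intensity was 7.30, 7.40, 7.35, 7.33 and 7.47 on CC-122 arrays 1 to 5, against 6.59, 6.42, 6.51, 6.76 and 6.58 on DMSO arrays 1 to 5. Every CC-122 array lay above every DMSO array, with a gap wider than the spread of either group. RBFOX2 rose by 0.80 ± 0.07 on the log2 scale (SE), or 1.74-fold, with an adjusted p of 1.01e-05 from limma, and the call held in all 20 alternative analyses, at 0.54 to 0.88. ELAVL1 (HuR), which stabilises mRNAs with AU-rich elements, fell by 0.45 ± 0.10 log2 units (SE, adjusted p = 0.0094 from limma). It averaged 5.53 ± 0.18 in CC-122 cells and 5.98 ± 0.15 in DMSO cells (SD, n = 5 each), and the groups did not overlap. The call of ELAVL1 was lost with median scaling (adjusted p = 0.332 from limma), and its change was -0.49 to -0.21 over the 20 alternative analyses. RBFOX2 and ELAVL1 had 1 kept probe each. These were the 2 calls among 24 tested splicing regulators.

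The other 5 calls were EIF4A3, CWC22, CDC40, SRPK1 and LSM5, all lower after CC-122. EIF4A3, the helicase that anchors the exon junction complex on spliced mRNA, fell by 0.27 ± 0.07 (SE, adjusted p = 0.0164 from limma), at 10.80 to 10.95 on CC-122 arrays and 11.03 to 11.29 on DMSO arrays. It was the lone call among 6 tested genes of that complex, and it was lost with the replicate block (adjusted p = 0.0538 from limma) and with median scaling (adjusted p = 0.838). CWC22, which brings EIF4A3 to the spliceosome, fell by 0.34 ± 0.09 (SE, adjusted p = 0.025 from limma), though its second probe gave -0.03. CDC40, which acts in the second catalytic step, fell by 0.29 ± 0.09 (SE, adjusted p = 0.0404 from limma). CWC22 and CDC40 were the calls among 16 genes tested of that list, and they lost the call in 7 and 8 of 20 alternative analyses.

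SRPK1, a kinase that phosphorylates SR proteins, fell by 0.21 ± 0.06 (SE, adjusted p = 0.0453 from limma). It had normalized log2 intensities of 8.91 to 9.15 on CC-122 arrays and 9.23 to 9.35 on DMSO arrays, and it was the lone call among 8 tested genes of the list of SR protein kinases and partners. LSM5, part of the ring on the U6 snRNA and of the ring that starts mRNA decay, fell by 0.20 ± 0.06 (SE, adjusted p = 0.0472 from limma), and its second probe gave -0.29. It was the lone call among 10 LSM genes. SRPK1 lost its call in 13 and LSM5 in 14 of 20 alternative analyses.

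**Figure D5:**
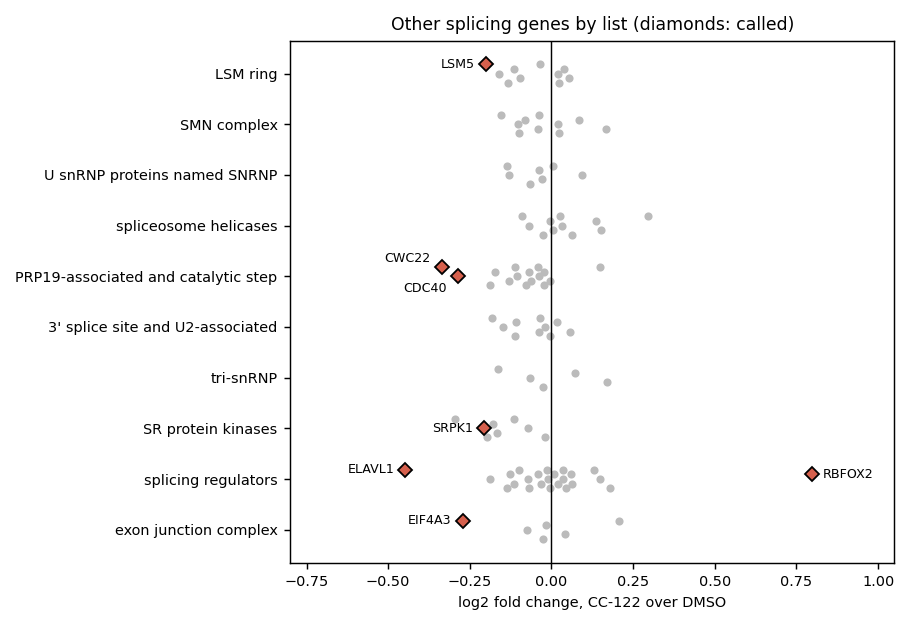
Log2 fold change (CC-122 over DMSO) of 107 other splicing genes by list, with called genes as labelled diamonds. RBFOX2 stands at 0.80, the 6 genes that fell lie between -0.45 and -0.20, and the uncalled genes cluster around 0.

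Genes that did not pass the filter on detection were few. PRPF40B, HNRNPCL1 and SRSF12 were detected on 0 of 10 arrays. HNRNPKP3, a transcribed pseudogene, was detected on 3 CC-122 arrays and 0 DMSO arrays by one probe and on none by the other.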

How the data were processed

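RNA of 10 OCI-LY10 samples (5 with CC-122, 5 with DMSO) was measured on Illumina BeadChips. The authors deposited probe intensities without normalization, per the file name, and beside each intensity they deposited a detection p-value. The sources used here do not name the scanner software. A further table of values normalized by the authors holds 34468 probes in log2 units, as its range shows, and served as an alternative; their column medians were all 4.54, each column matched its own array best (correlation at least 0.9999), and their normalization method is unknown. 1 of 48107 probes lacked a value and was left out.

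The neqc function (limma 3.58.1, R 4.3.3, offset 16) corrected background and normalized by quantiles. Gene names came from the platform's probe table, and symbols were updated to GRCh38.p14 by gene identifier, and 17125 probes with detection p below 0.05 on at least 5 arrays were kept. The probe with the highest mean stood for its gene. CC-122 was compared with DMSO by lmFit and eBayes over 9041 genes with Benjamini-Hochberg adjustment. The number of arrays limits the precision. The calculation was tested on simulated data.

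The genes and lists were chosen with earlier results of these data known. Genes named were every called splicing factor, 17 fixed genes, those with probes of opposite sign or differing calls, and up to 2 called genes per list; others were picked after their values were seen. Alternatives were other background corrections, scaling, filters, probe rules, variance models, a replicate block and leaving out each array.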

Additional observations from a re-analysis of the deposited data

Results flagged for a closer look

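Of 64 groups of 5 arrays looked at (32 named genes in both groups), 3 held an array that stood apart from the other 4 by Dixon's criterion, and chance flags about 1 in 20 groups. HNRNPL stood at 9.19 on DMSO replicate 5, against 8.74 to 8.83 on the other DMSO arrays. SRPK1 stood at 9.35 on the same array, against 9.23 to 9.25 on the others. SNRPN stood at 7.89 on DMSO replicate 3, against 7.66 to 7.72 on the others.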

How the results depend on the processing

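In each of 20 alternative analyses a smaller share of splicing factors than of all genes was called, at 0 to 6.15% of splicing factors and 5.34 to 18.2% of all genes, and at most 4 splicing factors passed. HNRNPLL was called in 19 of 20 (all but median scaling) and PRPF6 in 5. The number of splicing factors higher was 0 with median scaling and 1 with the fixed offset of 50, without background correction, without a detection filter, with an intensity trend, with array weights and with the replicate block. The number lower was 2 with the fixed offset, without background correction and among probes detected on all 10 arrays. It was 1 with the mean of probes (HNRNPH1) and with the replicate block (U2AF1L4), and 3 with an intensity trend. The median change was 0.049 with median scaling, which moved the median of all genes by 0.08. Of the other splicing genes, 2 were higher with the fixed offset, without background correction and with an intensity trend, and the number lower was 0 with median scaling and 3 without a detection filter and with the replicate block, but 7 with the fixed offset and on probes detected on all 10 arrays, and 9 without background correction and with an intensity trend. With an array left out, 1 to 2 splicing factors were higher and 0 to 1 lower, the median change was -0.052 to -0.033, and of the other splicing genes 1 to 2 were higher and 2 to 6 lower. The causes were not tested.

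Changes of sign occurred among uncalled genes. With median scaling SRSF2 was at 0.0035, HNRNPA2B1 at 0.014, SNRPB at 0.079, SF3B1 at 0.076, PRPF8 at 0.082, PRPF19 at 0.057, U2AF1 at 0.0030, SNRPF at 0.041 and HNRNPUL1 at 0.0087. With the mean of probes SNRPB was at 0.0027 and HNRNPH3 at -0.016; SNRPB was at 2.81e-05 in the authors' deposited values and SF3B1 at 0.0016 with array weights. With an array left out, values spanned 0 for SF3B1 (-0.048 to 0.031), SNRPB (-0.025 to 0.025), HNRNPA1 (-0.032 to 0.062), PRPF8 (-0.058 to 0.015) and HNRNPH3 (-0.025 to 0.092). Arrays with the same replicate number carried adjacent numbers in the sample descriptions. Their deviations from the group means correlated at -0.01 to 0.14. Arrays with unlike replicate numbers were not compared in this way, so these correlations can neither show nor dismiss a pairing. The main fit did not use the replicate number, and with it as a block 1 splicing factor was higher and 1 lower. Signal over background limits PRPF39, which was not detected on 3 of the 5 CC-122 arrays.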
